A study of Homo sapiens with 16 samples.

Results

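Aldehyde dehydrogenases are described here as 9 genes, ALDH1A1, ALDH1A3, ALDH1B1, ALDH2, ALDH3A1, ALDH3A2, ALDH3B1, ALDH3B2 and ALDH7A1, out of 26229 listed genes. The genes were chosen by symbol, and the group was put together because ALDH1A1 and ALDH3A1 were higher after YAP1 knockdown and lower with active YAP in these same libraries. The values of the members in those contrasts are therefore a description and carry no test. All 9 were listed, and all 9 passed the filter of over 10 counts on average per library, which left 14673 genes. RNA was sequenced from 2 human lines, A431, an epidermoid carcinoma line, and HaCaT, a spontaneously immortalised keratinocyte line, both grown in DMEM with 10% FCS. For each line there was 1 library of cells given control siRNA (siCTRL) and 3 of cells given YAP1 siRNA (siYAP), none of them with an expression vector. There was also 1 library of cells given the empty expression vector and 3 of cells given YAP5SA, a YAP with serines targeted by the LATS kinases replaced, which makes 16 libraries in 8 groups. The siRNAs were given in 2 rounds 24 h apart, and RNA was taken 48 h after the last round. Each arm thus rests on a single control library per line, A431 and HaCaT are single established lines, and YAP5SA is an overexpressed mutant.

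Aldehyde dehydrogenases use NAD+ or NADP+ to turn reactive aldehydes into carboxylic acids. ALDH1A1 and ALDH1A3 make retinoic acid from retinaldehyde, and retinoic acid controls keratinocyte differentiation. ALDH3A2 oxidises long-chain fatty aldehydes, and its loss causes Sjögren-Larsson syndrome, a disorder with ichthyosis. YAP is the transcriptional co-activator at the end of the Hippo pathway and acts mainly through TEAD factors.

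The libraries held between 18115624 and 46791673 assigned read pairs, with a median of 26622174, and levels are given as CPM, counts scaled to a common library size with TMM factors. At this depth 3 counts correspond to between 0.063 and 0.164 CPM. YAP1 followed the siRNA labels. Its level was 94.2 CPM in the A431 siCTRL library and 5.34, 6.995 and 5.04 CPM in the A431 siYAP libraries, and 254 CPM against 23.2, 21.6 and 21.8 CPM in HaCaT. With YAP5SA, YAP1 reached 1494, 3244 and 2938 CPM in A431 against 124 CPM with the empty vector, and 7546, 22240 and 10060 CPM in HaCaT against 423 CPM. Replicate 1 of YAP5SA had the lowest YAP1 level of its group in both lines. EGFR, which is amplified in A431, lay between 749.6 and 1357 CPM in A431 and between 297 and 557 CPM in HaCaT. All 6 keratinocyte markers were above 1 CPM in every group, but their summed level was 2213 and 1503 CPM in the siCTRL libraries of A431 and HaCaT and 4517 and 6621 CPM in the empty vector libraries. The fibroblast, leukocyte and melanocyte marker sums were at most 5.68 CPM in any library. The sum of PECAM1 and CDH5, the endothelial markers, was 32.5 and 52.0 CPM in the siCTRL libraries of A431 and HaCaT and 3.58 and 0.127 CPM in the empty vector libraries. The part of these differences between the controls in the results was not tested.

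ALDH1A1 and ALDH1A3 catalyse the same reaction, yet in HaCaT ALDH1A1 had the largest fold changes of the 9 genes, the siYAP one against a control of 2 counts, and ALDH1A3 was the most abundant per length in both lines. Their promoters are shown because of that contrast, as the 250 bases before the annotated start in RefSeq (GRCh38.p14). Capitals mark the CCAAT box and the letters GCGTG, the core of the element bound by the aryl hydrocarbon receptor, on either strand.
ALDH1A1, chr9:72953054-72953303, minus strand: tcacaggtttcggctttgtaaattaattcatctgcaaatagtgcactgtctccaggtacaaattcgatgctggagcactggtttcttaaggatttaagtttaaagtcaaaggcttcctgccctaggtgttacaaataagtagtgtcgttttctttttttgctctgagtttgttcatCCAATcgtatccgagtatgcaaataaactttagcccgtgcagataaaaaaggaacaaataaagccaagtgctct
ALDH1A3, chr15:100879581-100879830, plus strand: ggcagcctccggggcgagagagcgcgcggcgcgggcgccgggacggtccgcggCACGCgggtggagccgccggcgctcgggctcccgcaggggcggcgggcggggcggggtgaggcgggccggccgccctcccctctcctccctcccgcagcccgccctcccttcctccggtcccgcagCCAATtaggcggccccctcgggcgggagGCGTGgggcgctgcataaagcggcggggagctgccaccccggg
The ALDH1A1 window had a GC content of 38.4% and 6 CpG dinucleotides, against 82.4% and 38 for ALDH1A3. Over 35097 promoters of the same length the median GC content was 58.0%, with quartiles of 46.4% and 68%, and the median CpG number was 11. Each window held 1 CCAAT, which 32.0% of all promoters hold, and GCGTG occurred at 2 places in ALDH1A3 and at none in ALDH1A1, against 32.2% of all promoters with a match. The letters GGAATG, the motif of TEAD factors, and TGANTCA, the AP-1 motif, were searched on both strands and had no match in these windows, nor in the windows found for ALDH1B1, ALDH3A2, ALDH3B1 and ALDH7A1. All promoters held them in 11.9% and 6.57% of cases. No window was found for ALDH2, ALDH3A1 and ALDH3B2.

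ALDH1A1 was far lower in HaCaT than in A431 and varied most there. In A431 the siCTRL library had 10.7 CPM and the siYAP libraries 20.8, 15.7 and 15.1 CPM. The A431 empty vector library had 19.1 CPM and the YAP5SA libraries 14.5, 11.9 and 14.98 CPM. All 3 A431 siYAP libraries lay above siCTRL and all 3 YAP5SA libraries below the empty vector, but the empty vector itself fell inside the siYAP range and every YAP5SA library was above siCTRL. Over 12237 genes with logCPM, the mean level, above 1, 36.5% had all 3 A431 siYAP libraries above siCTRL. All 3 A431 YAP5SA libraries were below the empty vector in 21.2%. The HaCaT shares were 35.7% and 36.7%, and 36.5% and 31.6% for the opposite sides. No such share was taken for the order of all 4 groups. ALDH1A1 in the HaCaT siCTRL library was at 0.109 CPM, which is 2 counts, and the siYAP libraries had 1.70, 2.28 and 2.35 CPM. The HaCaT empty vector library had 3.09 CPM, above every siYAP library, and the YAP5SA libraries 0.487, 0.0574 and 0.535 CPM. From the counts, the HaCaT siYAP to siCTRL ratio was 19.3, with an exact 95% interval of 5.27 to 161 for counting error only, from 162 counts against 2. The ratio of empty vector to siCTRL was 28.3, with an interval of 7.62 to 237. The ratio of YAP5SA to the empty vector was 0.120 (interval 0.0817 to 0.174), whereas YAP5SA against siCTRL gave 3.40 (interval 0.884 to 28.99). In HaCaT, siCTRL and YAP5SA were thus the low groups, which overlapped, and siYAP and the empty vector the high ones. In these bulk samples, fewer cells with the transcript and less transcript per cell cannot be told apart.

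ALDH1A3, the retinaldehyde dehydrogenase that dominated both lines, differed little within either arm. The A431 level was 779 CPM with siCTRL, 1046, 946.9 and 943.4 CPM with siYAP, 566.9 CPM with the empty vector, and 680.8, 605.8 and 628.7 CPM with YAP5SA. The HaCaT level was 2281 CPM with siCTRL, 2487, 2814 and 2605 CPM with siYAP, 1088 CPM with the empty vector, and 1331, 863.2 and 749.9 CPM with YAP5SA. In both lines every siRNA library was above every vector library, treated or not. The share of all genes with such a separation of the arms was not taken, so nothing particular to ALDH1A3 is read from it. The fold change over both lines was 0.27 ± 0.17 (SE, log2) for siYAP and 0.01 ± 0.17 for YAP5SA.

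Of the mitochondrial enzymes, ALDH1B1 ran against ALDH1A1 in HaCaT. ALDH2, the main acetaldehyde dehydrogenase, had every siYAP library above siCTRL in both lines, as ALDH1A1 had, but did not share its fall with YAP5SA. ALDH1B1 was lower with siYAP in HaCaT, at 6.08, 4.37 and 3.93 CPM against 9.99 CPM, and higher with YAP5SA, at 22.1, 25.2 and 24.2 CPM against 18.1 CPM. The 4 HaCaT groups of ALDH1B1 did not overlap, and their order was the reverse of that of ALDH3A1. In A431 it lay between 58.98 CPM, in the empty vector library, and 81.1 CPM, in the siCTRL library. ALDH2 lay between 52.97 and 74.4 CPM in A431 and between 1.26 and 3.30 CPM in HaCaT, and in both lines the siCTRL library was the lowest. Its log2 fold change over both lines was 0.61 ± 0.23 (SE) for siYAP and 0.03 ± 0.19 for YAP5SA.

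ALDH3A1, a cytosolic enzyme for aromatic and lipid-derived aldehydes that is abundant in the cornea, had a fold change of similar size in both lines. In A431 it measured 19.1 CPM in the siCTRL library and 43.5, 49.4 and 44.7 CPM in the siYAP libraries, against 65.9 CPM with the empty vector and 32.7, 26.9 and 30.7 CPM with YAP5SA. In HaCaT it measured 9.45 CPM in the siCTRL library and 17.2, 21.7 and 17.7 CPM in the siYAP libraries, against 5.44 CPM with the empty vector and 3.97, 1.89 and 1.66 CPM with YAP5SA. The HaCaT groups ran from siYAP through siCTRL and the empty vector to YAP5SA without overlap. In A431 the groups did not overlap either, but the order was empty vector, siYAP, YAP5SA and siCTRL, so that both treated groups lay between the 2 controls. For siYAP the log2 fold change was 1.26 ± 0.35 (SE) in A431 and 0.99 ± 0.36 in HaCaT, and for YAP5SA it was −1.13 ± 0.30 and −1.11 ± 0.34.

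The other ALDH3 genes shared this order in HaCaT to differing degrees. ALDH3A2 measured 233 CPM with siCTRL, 315, 384 and 300.4 CPM with siYAP, 246 CPM with the empty vector and 175, 120 and 109.6 CPM with YAP5SA, so that siYAP was above both controls and YAP5SA below both. In A431, ALDH3A2 was lowest with siCTRL, at 73.9 CPM, while the empty vector at 132.5 CPM lay within the YAP5SA range of 124.8 to 135.5 CPM and above the siYAP range of 98.5 to 111 CPM. ALDH3B2 measured 5.57 CPM with siCTRL, 12.3, 12.9 and 11.8 CPM with siYAP, 2.71 CPM with the empty vector and 1.87, 0.689 and 1.05 CPM with YAP5SA in HaCaT. The same gene measured 3.43 CPM with siCTRL, 15.6, 16.2 and 17.0 CPM with siYAP, 9.04 CPM with the empty vector and 12.4, 4.003 and 5.20 CPM with YAP5SA in A431. In A431 the YAP5SA libraries of ALDH3B2 straddled the empty vector, replicate 1 being the high one. ALDH3B1, its close paralogue, separated the arms in HaCaT, with 63.5 CPM in the siCTRL library and 70.6, 49.1 and 63.8 CPM in the siYAP libraries against 13.7 CPM with the empty vector and 14.7, 5.71 and 8.08 CPM with YAP5SA. For this separation, too, no share over all genes was taken. In A431 ALDH3B1 lay between 15.96 CPM, with siCTRL, and 30.9 CPM, with the empty vector. ALDH7A1, an enzyme of lysine breakdown, ranged from 116.7 to 197 CPM in A431, where all neighbouring groups overlapped, and from 39.5 to 129 CPM in HaCaT, where it was highest with the empty vector.

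**Figure D1:**
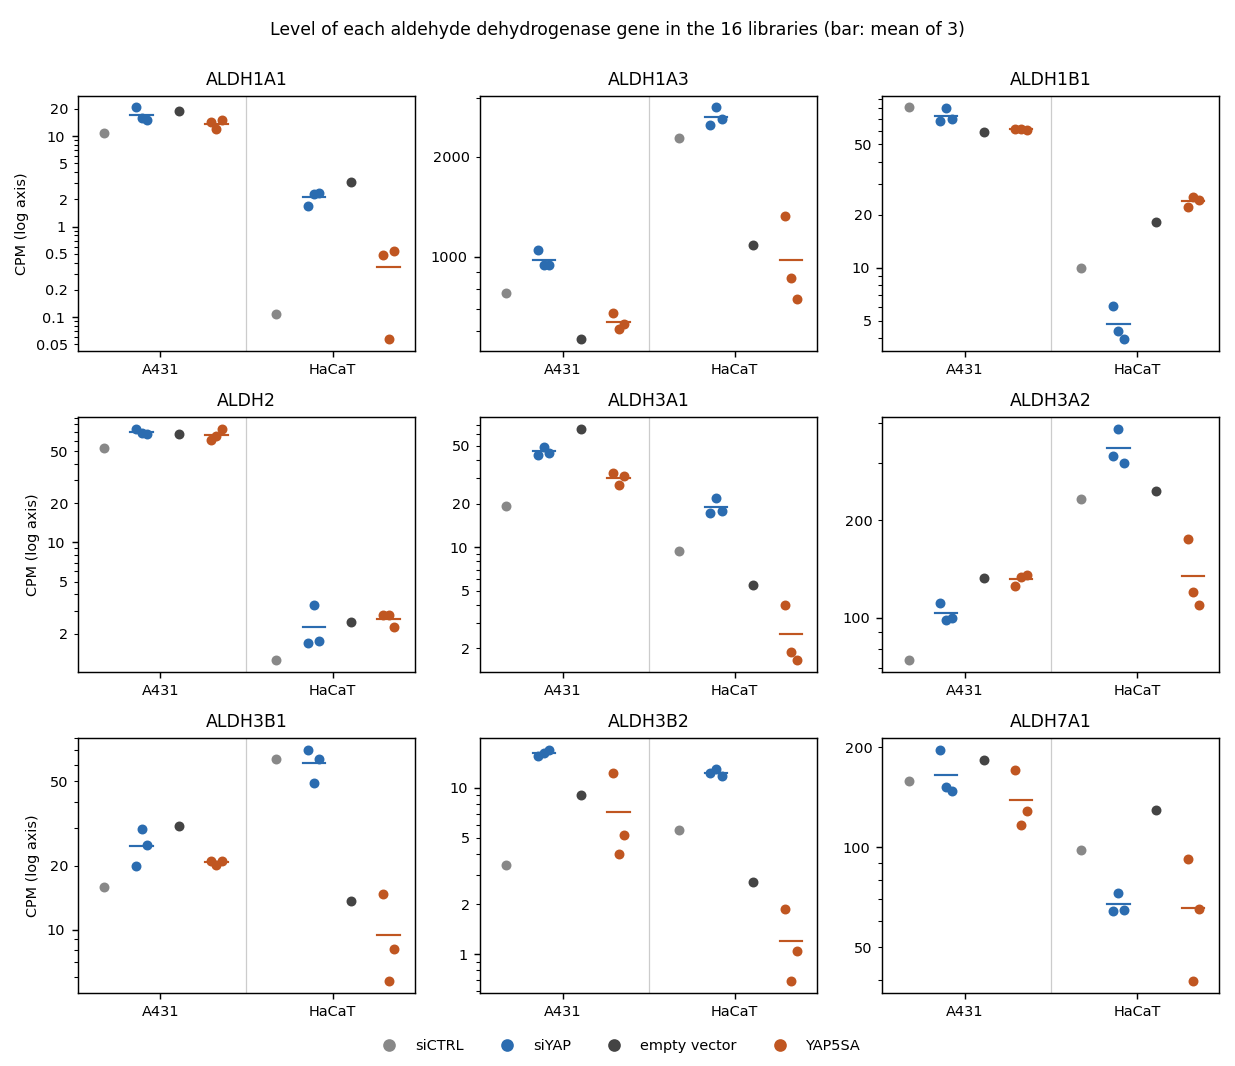
CPM on log axes (axis ranges differ between panels) for the 9 genes in each of the 16 libraries, by line and condition, with a bar at the mean of each group of 3. ALDH1A1 in HaCaT spans 0.0574 to 3.09 CPM, and ALDH3A1 in A431 has its controls at 19.1 and 65.9 CPM with all treated libraries between them.

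Set side by side, the gap between the 2 controls was as large as the effect of the treatment for several of the genes. For ALDH3A1 the empty vector library differed from siCTRL by 1.78 ± 0.41 (SE, log2) in A431 and by −0.80 ± 0.43 in HaCaT. ALDH1A1 differed between the controls by 0.83 ± 0.54 in A431 and by 4.77 ± 0.98 in HaCaT, where its siYAP effect was 4.22 ± 0.94. For ALDH3B1 the controls differed by 0.95 ± 0.47 and by −2.22 ± 0.48, and for ALDH1A3 by −0.46 ± 0.29 and by −1.07 ± 0.30. With 1 library in each control group, a difference between siRNA and vector transfection and a difference between single cultures cannot be told apart. The SE of these gaps is borrowed from the spread within the treated groups and holds no measured spread between control libraries. When siCTRL and empty vector served together as 2 controls, the siYAP effect over both lines was 0.26 for ALDH1A1 and 0.73 for ALDH3A1, against 2.45 ± 0.53 and 1.13 ± 0.25 with siCTRL alone. In that setting it was 1.49 for ALDH3B2, against 1.70 ± 0.41. The YAP5SA effect over both lines was then −1.15 for ALDH1A1 and −1.03 for ALDH3A1, against −1.76 ± 0.32 and −1.12 ± 0.23 with the empty vector alone.

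**Figure D2:**
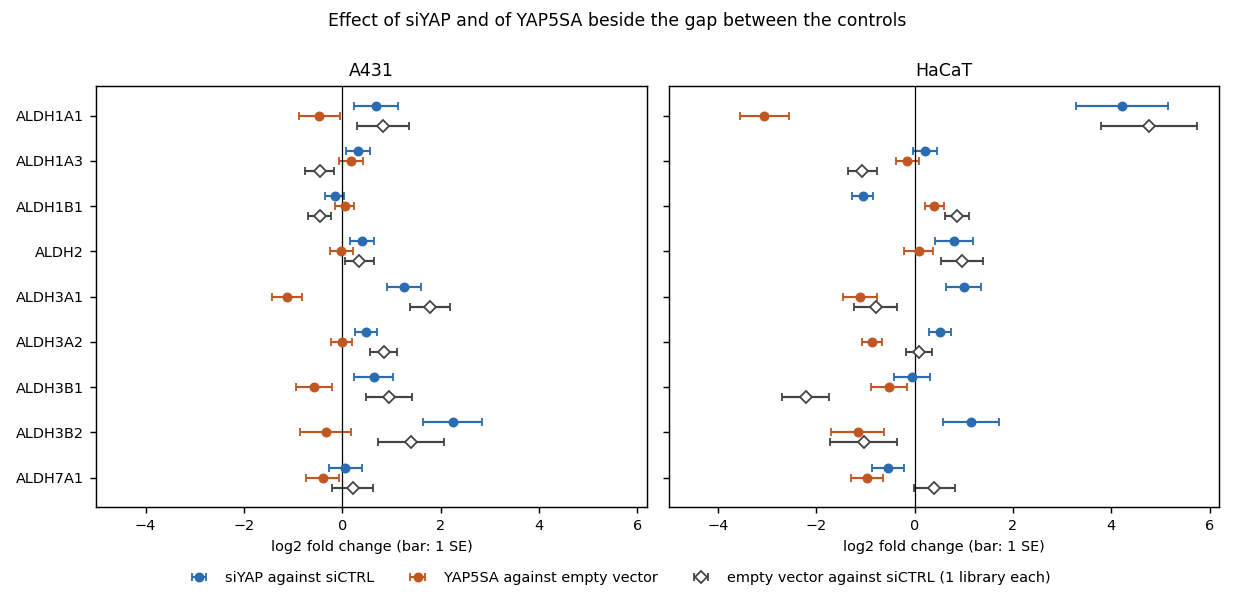
log2 fold change with 1 SE (edgeR) of siYAP against siCTRL and of YAP5SA against the empty vector, 3 libraries against 1, with the difference between the single empty vector and siCTRL libraries as open diamonds, in A431 and HaCaT. For ALDH1A1 in HaCaT the diamond at 4.77 lies beyond the siYAP effect of 4.22, and for ALDH3A1 in A431 the diamond at 1.78 lies beyond the siYAP effect of 1.26.

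A gene was called where the quasi-likelihood test of edgeR gave a Benjamini-Hochberg FDR under 0.05 and the mean level, logCPM, was above 1. For siYAP, 1 of the 9 genes was called in A431 (ALDH3B2, higher), where 5.6% of all genes tested were called, and 2 in HaCaT (ALDH1A1, higher, and ALDH1B1, lower), where 5.67% were. Over both lines 4 were called, ALDH1A1, ALDH3A1 and ALDH3B2 as higher and ALDH1B1 as lower, against 13% of all genes. For YAP5SA, none of the 9 was called in A431, where 0% of all genes were called by edgeR. DESeq2 called 3 genes there, and 701 genes had an unadjusted p under 0.05 in edgeR. In HaCaT 3 of the 9 were called as lower (ALDH1A1, ALDH3A1 and ALDH3A2), against 13.6% of all genes in either direction, and over both lines 2 (ALDH1A1 and ALDH3A1), against 2.04%. Since the genes were chosen on these contrasts, these calls are a description and no test of the 9. Nothing is read from the counts, or from calls gained or lost in other fits. The median log2 fold change of the 9 over both lines was 0.50 for siYAP and −0.55 for YAP5SA, beside 0.04 and 0.03 over all genes tested. As the group was put together on these effects in ALDH1A1 and ALDH3A1, nothing is read from the medians either. The ALDH3B2 call in A431 was lost without any 1 of the 3 siYAP libraries. The YAP5SA calls of ALDH1A1 and ALDH3A1 over both lines were lost without A431 YAP5SA replicate 2 and without replicate 3, where 63 and 48 genes in all were called instead of 300. Without HaCaT YAP5SA replicate 1, 5 of the 9 were called over both lines, and 1367 genes in all. In HaCaT alone the ALDH3A1 call was lost without YAP5SA replicate 2 or replicate 3. With the replicate number as a block, ALDH7A1 was called as well, which made 4 of the 9 in HaCaT, where 2237 genes were called in all, and 3 over both lines, where 611 were.

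The difference between the lines in each effect was not itself used to choose the genes, but it is built from the effects that were. Its p values and intervals are therefore not independent of the choice, least of all for ALDH1A1 and ALDH3A1. None of the 9 was called for a difference in the siYAP effect, where 0.17% of all genes were, or in the YAP5SA effect, where 0.0886% were. Unadjusted p values under 0.05 were found for ALDH1A1 and ALDH1B1 in the first and for ALDH1A1 and ALDH3A2 in the second. The siYAP effect on ALDH1A1 was lower in A431 than in HaCaT by −3.54 on the log2 scale (SE 1.09, 95% interval −5.9 to −1.17, FDR 0.229), with 2 counts in the HaCaT control. The YAP5SA effect on ALDH1A1 differed by 2.59 (SE 0.69, interval 1.11 to 4.08, FDR 0.073), from −0.47 ± 0.42 (SE) in A431 and −3.06 ± 0.50 in HaCaT. DESeq2 called this difference for ALDH1A1, as did edgeR without HaCaT YAP5SA replicate 1 or without replicate 2. DESeq2 called 883 genes in all for this difference, and edgeR with 1 treated library left out 1 to 873, against 13 in the main fit. Nothing is read from these added calls. For ALDH3A2 the YAP5SA effect was −0.01 ± 0.22 in A431 and −0.87 ± 0.21 in HaCaT, a difference of 0.85 (interval 0.19 to 1.52, FDR 0.138), which edgeR called only without HaCaT YAP5SA replicate 1. For ALDH1B1 the siYAP effect was −0.16 ± 0.19 and −1.06 ± 0.21, a difference of 0.90 (interval 0.29 to 1.51, FDR 0.235). For ALDH3A1 the differences were 0.27 (interval −0.76 to 1.29) and −0.02 (interval −1.13 to 1.1).

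The difference between A431 and HaCaT was not used to choose the genes, and it was large for most of them. Over the 4 conditions, 8 libraries against 8, edgeR called 8 of the 9 genes, against 60.6% of all genes tested, 6 of them higher in A431 and ALDH1A3 and ALDH3A2 lower. ALDH2 was higher in A431 by 4.96 ± 0.17 (SE, log2, FDR 5.12e-11), a 31.1-fold difference, with no overlap between the lowest A431 library at 52.97 CPM and the highest HaCaT library at 3.30 CPM. ALDH1A1 was higher by 4.36 ± 0.31 (FDR 3.42e-08), ALDH1B1 by 2.50 ± 0.11 (FDR 2.96e-10) and ALDH3A1 by 2.37 ± 0.18 (FDR 7.08e-08). ALDH3B2 (1 ± 0.27, FDR 0.0052) and ALDH7A1 (0.89 ± 0.17, FDR 0.000399) differed less. ALDH1A3 was lower in A431 by −1.14 ± 0.12 (FDR 2.16e-06) and ALDH3A2 by −1.07 ± 0.11 (FDR 1.54e-06). ALDH3B1 did not pass the test (−0.25 ± 0.19, FDR 0.263). The 2 retinaldehyde dehydrogenases among the 9 genes thus differed between the lines in opposite directions.

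Within the treated groups, 3 libraries against 3, 8 of the 9 genes were called with siYAP, against 58.5% of all genes, and 8 with YAP5SA, against 50.2%. ALDH3B1 was lower in A431 within siYAP (−1.30, interval −1.88 to −0.72, FDR 0.000737) and higher within YAP5SA (1.13, interval 0.54 to 1.72, FDR 0.00314). ALDH3A2 was lower in A431 within siYAP (−1.69, FDR 6.82e-07) and not called within YAP5SA (−0.04, interval −0.37 to 0.29, FDR 0.844). ALDH3B2 was not called within siYAP (0.40, interval −0.37 to 1.17, FDR 0.338) and was higher in A431 within YAP5SA (2.56, FDR 0.000128). ALDH1B1 was higher in A431 by 3.93 within siYAP (FDR 4.53e-10) and by 1.35 within YAP5SA (FDR 2.37e-06). ALDH2 was nearly level across them, at 4.99 (FDR 7.66e-10) and 4.68 (FDR 1.83e-09). These line comparisons also hold the arm, siRNA against vector, which the 2 treatments do not share.

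**Figure D3:**
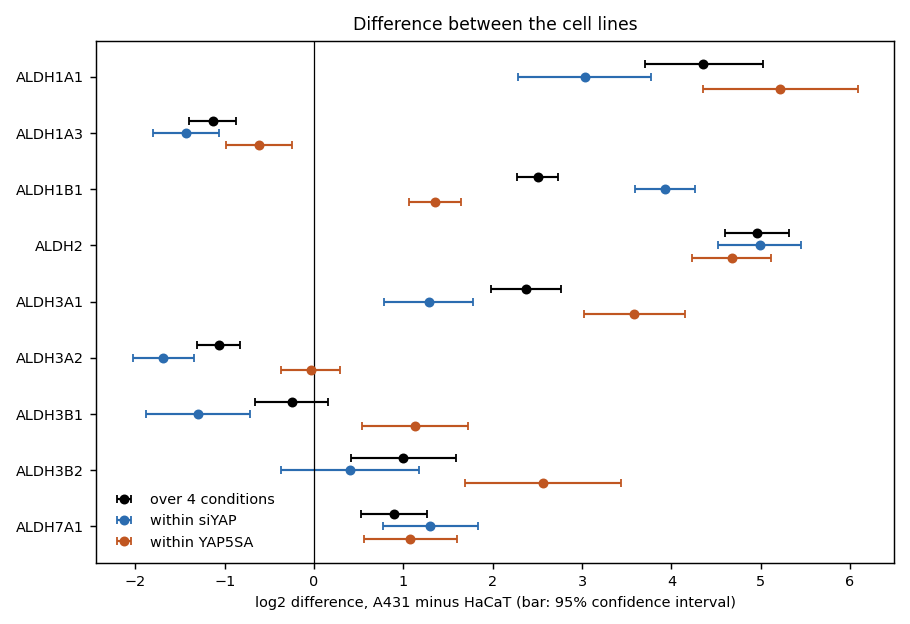
log2 difference between A431 and HaCaT with its 95% interval (edgeR) for the 9 genes, over all 4 conditions (8 libraries of each line), within siYAP and within YAP5SA (3 of each). ALDH2 lies between 4.68 and 4.99 in the 3 comparisons, and ALDH3B1 changes sign from −1.30 within siYAP to 1.13 within YAP5SA.

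Levels of different genes can be set against each other only per length. CPM were divided by the length of the coding transcript with the longest coding sequence in GENCODE 29 and expressed as a share of the sum over 19 genes of the superfamily, the 9 and 10 others. ALDH1A3 was the highest in all 16 libraries. Its share was 31.6% to 44.9% in A431 and 53.0% to 73.3% in HaCaT, and 39.0% to 52.7% and 60.9% to 77.0% when coding length was used. In HaCaT it made up 72.0% with siCTRL and 71.7% to 73.3% with siYAP, but 53.0% with the empty vector and 53.0% to 64.1% with YAP5SA. In A431, ALDH7A1 took, per transcript length, 11.02% to 16.1% and ALDH3A2 4.12% to 8.31%, whereas in HaCaT ALDH7A1 took 2.86% to 9.89% and ALDH3A2 7.53% to 12.3%. ALDH1A1 was at most 1.98% in A431 and 0.280% in HaCaT, and ALDH3A1 took 2.12% to 7.50% in A431 and 0.239% to 1.15% in HaCaT. By coding length these shares were lower, at most 1.34% and 0.177% for ALDH1A1, and 1.40% to 5.12% and 0.155% to 0.669% for ALDH3A1. ALDH7A1 then took 7.62% to 11.7% in A431 and 1.77% to 6.69% in HaCaT. Of the windows of 75 bases in the ALDH1A3 transcript, 34.0% were also found on the opposite strand in transcripts of another gene, AC015712.2. Without strand, reads from there cannot be told apart, and whether the counting used strand is not given in the sources used here. For ALDH7A1, 5.73% of windows matched its pseudogene ALDH7A1P1 and for ALDH2 7.05% matched transcripts of 45 other genes. For ALDH3A1, 1.51% matched AC005722.3 on the opposite strand, while ALDH1A1, ALDH1B1, ALDH3A2, ALDH3B1 and ALDH3B2 shared none. Only exact matches to 1 transcript per gene were searched. Deposited counts of ALDH1B1, ALDH3A2, ALDH3B1, ALDH3B2 and ALDH7A1 included fractions in some or all libraries, such as 326.13 for ALDH3B1 in A431 siCTRL. Their reads may therefore have been split with other genes.

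**Figure D4:**
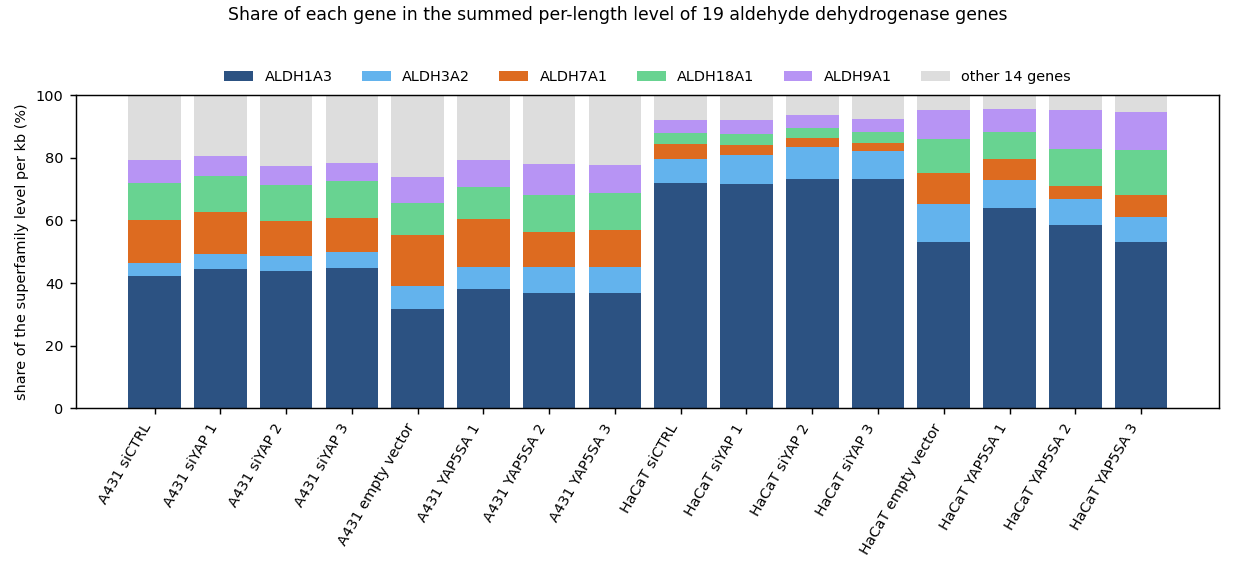
Share in percent of the summed level per kb of transcript of 19 aldehyde dehydrogenase genes, for the 16 libraries, with the 5 leading genes stacked and the rest in grey. ALDH1A3 is the largest part of every bar, at 31.6% to 44.9% in A431 and 53.0% to 73.3% in HaCaT.

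The ALDH3 genes varied together over the libraries. After the mean of each line was taken out, the Pearson correlation of log2 CPM over 16 libraries was 0.93 for ALDH3A1 with ALDH3B2 and with ALDH3B1, 0.88 with ALDH3A2 and 0.85 with ALDH1A3, but 0.60 with ALDH1A1. ALDH1B1 ran against them, at −0.89 with ALDH3A1, −0.87 with ALDH3B1 and −0.85 with ALDH3A2. ALDH7A1 and ALDH2 stayed between −0.48 and 0.39 with every other member. These points share line, arm and treatment, so the values are a description. ALDH3A1 and ALDH3A2 lie on chromosome 17 with 1 coding gene between them, and ALDH3B1 and ALDH3B2 on chromosome 11 with 2 between them. The coding sequences of ALDH3B1 and ALDH3B2 were 86.8% identical over 1155 aligned bases, against 67.6% for ALDH3A1 and ALDH3A2, 73.2% for ALDH2 and ALDH1B1 and 68.2% for ALDH1A1 and ALDH1A3.

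Among 12228 other genes, those with a pattern most like ALDH3A1 were TLCD2 (r = 0.97), ZFYVE1 (0.96), CYP4F12 (0.96), a cytochrome P450, KLC4 (0.96), a kinesin light chain, and FAM110C (0.95), over the same 16 libraries. Within A431 alone their correlations with ALDH3A1 ran from 0.61 to 0.94, and within HaCaT from 0.96 to 0.997. For ALDH1A1 they were PPP1CB (0.89), a catalytic subunit of protein phosphatase 1, ARHGEF3 (0.88), UBE2B (0.88), a ubiquitin-conjugating enzyme, CA2 (0.86), a carbonic anhydrase, and MAGI3 (0.86), a junction scaffold. Within A431 these correlations ran from 0.42 to 0.88 and within HaCaT from 0.87 to 0.99. By Spearman correlation 3 of the 5 genes for ALDH3A1 and 1 of the 5 for ALDH1A1, MAGI3, stayed among the leading 5.

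The 10 other genes of the superfamily serve folate, amino acid and other metabolism. Of these, 9 were tested and none was called by edgeR in either arm, in either line or over both. For siYAP, 5.6% of all genes tested were called in A431, 5.67% in HaCaT and 13% over both lines. For YAP5SA the shares were 0%, 13.6% and 2.04%. With 9 genes at such shares, nothing is read from the absence of calls. Unadjusted p values under 0.05 were found for at most 2 of these 9 other genes in any of these comparisons. DESeq2 called 1, ALDH1L1, as higher with siYAP in A431. Their median log2 fold change over both lines was 0.29 for siYAP and 0.24 for YAP5SA. Between the lines, 8 of the 9 were called, 6 higher in A431, against 60.6% of all genes tested. ALDH5A1 and ALDH1L1 are among the 8 but passed the count filter only through A431, where they were high, so their levels are given as a description. ALDH5A1, the succinate semialdehyde dehydrogenase, lay between 23.9 and 38.5 CPM in A431 and at most at 0.729 CPM in HaCaT, and ALDH1L2, a mitochondrial folate enzyme, between 32.0 and 97.3 CPM against at most 0.760 CPM. ALDH1L1, its cytosolic counterpart, lay between 3.04 and 9.35 CPM in A431 and was at 0 counts in 7 of the 8 HaCaT libraries.

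Alcohol dehydrogenases, aldo-keto reductases and carbonyl reductases interconvert aldehydes or ketones and alcohols. Of 17 such genes 11 were tested, and with siYAP over both lines 5 rose and none fell, against 13% of all genes tested called in either direction. The risers were AKR1C1 (2.50 ± 0.43, SE, log2, FDR 0.00279), AKR1C2 (2.26 ± 0.42, FDR 0.0045), AKR1C3 (1.37 ± 0.32, FDR 0.0137), CBR3 (0.70 ± 0.15, FDR 0.00854) and AKR1B1 (0.60 ± 0.10, FDR 0.00219), all by edgeR. The AKR1C genes encode closely related hydroxysteroid dehydrogenases, whose reads may be split between them. The median of the 11 was 0.70, against 0.04 for all genes tested. The list was written with earlier results of these data known, so its calls and median are a description. Nothing is read from them about the list. The same holds for the retinoid and aryl hydrocarbon receptor lists below. ADH7, 1 of the 11, had 0 counts in every A431 library and passed the filter only through HaCaT. With YAP5SA in HaCaT, where 13.6% of all genes were called, 4 fell, AKR1A1 (−0.78 ± 0.18, FDR 0.0167), CBR3 (−0.78 ± 0.18, FDR 0.0141), CBR1 (−0.57 ± 0.14, FDR 0.0186) and ADH5 (−0.49 ± 0.15, FDR 0.0453), and in A431 none was called. The ADH5 call was lost with RLE size factors, with either other count filter and without YAP5SA replicate 2 or 3. These calls also rested on the controls. AKR1C1 measured 5.04 CPM in the A431 siCTRL library and 26.3 to 34.9 CPM in the siYAP libraries, but 23.3 CPM with the empty vector. In HaCaT it measured 0.928 CPM with siCTRL, 3.57 to 7.67 CPM with siYAP and 65.4 CPM with the empty vector. With siCTRL and empty vector as 2 controls none of the 11 was called for siYAP, in either line or over both, and 1, AKR1A1, for YAP5SA in HaCaT.

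**Figure D5:**
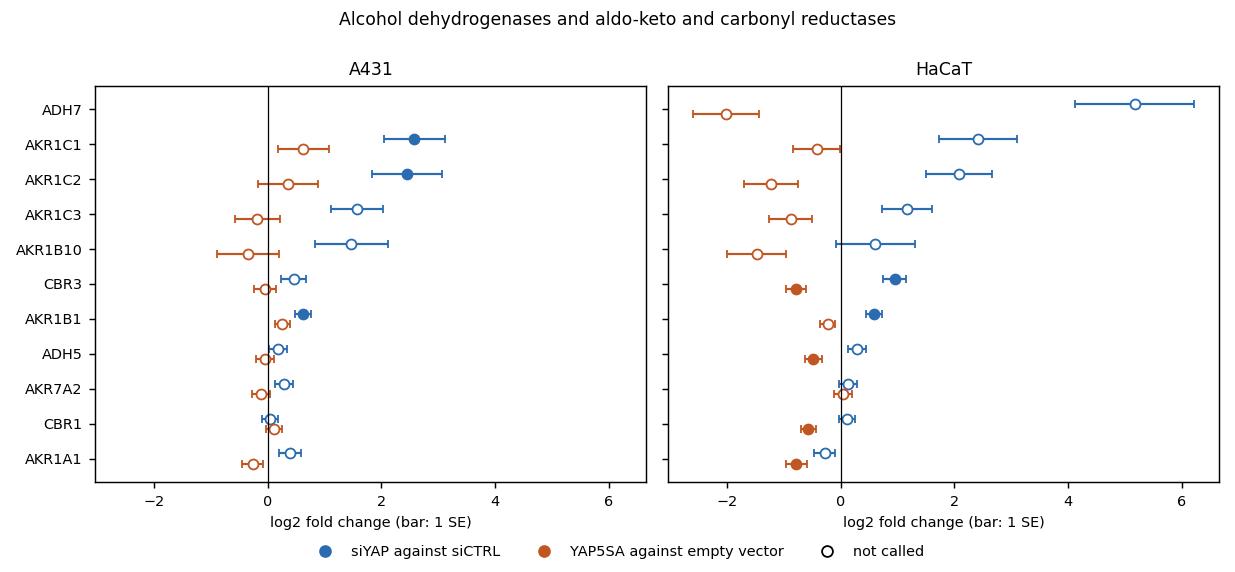
log2 fold change with 1 SE (edgeR) of the 11 tested alcohol dehydrogenases and aldo-keto and carbonyl reductases for siYAP and YAP5SA in A431 and HaCaT, filled where called. ADH7 had 0 counts in A431 and is not drawn there. AKR1C1 and AKR1C2 are the highest called genes with siYAP in A431, at 2.58 and 2.45.

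Among 20 genes of retinoid uptake, metabolism, binding and response, 18 were tested. With siYAP 2 were called in A431, beside 5.6% of all genes, and 1 in HaCaT, beside 5.67%, and with YAP5SA 2 in HaCaT, beside 13.6%. RDH10, which makes the retinaldehyde that ALDH1A1 and ALDH1A3 use, fell with siYAP by 0.75 on the log2 scale in A431 (FDR 0.00477) and by 0.66 in HaCaT (FDR 0.0062). The levels were 37.9 CPM with siCTRL against 21.3 to 24.6 CPM with siYAP in A431, and 176.7 against 106.1 to 118.9 CPM in HaCaT, where the empty vector had 106.9 CPM. RARRES1, a retinoid-responsive gene, fell in A431 by 1.24 (FDR 0.045), a call lost without siYAP replicate 1 or 3, with the stricter count filter, with a replicate block and with both controls pooled. With YAP5SA in HaCaT, CYP26B1, which breaks down retinoic acid, rose from 5.13 CPM to 11.3, 11.9 and 15.1 CPM (1.32 ± 0.33, FDR 0.0214), and DHRS3, which turns retinaldehyde back into retinol, fell by 0.53 (FDR 0.028), a call lost with no count filter. Over both lines CYP26B1 rose by 1.09 ± 0.23 (FDR 0.0379), a call lost without A431 YAP5SA replicate 2 or 3 or HaCaT YAP5SA replicate 3. With both controls pooled RDH10 was called for siYAP over both lines but in neither line alone. Of 8 genes of the aryl hydrocarbon receptor battery, to which ALDH3A1 belongs, 7 were tested. AHR itself fell with siYAP by 0.81 in A431 (FDR 0.00877) and by 0.48 over both lines (FDR 0.0104). With both controls pooled neither call remained, and NQO1, a quinone reductase, was called as lower over both lines instead. With the single controls the others, among them CYP1A1 (0.01 ± 0.20 over both lines, FDR 1) and CYP1B1 (0.28 ± 0.29, FDR 0.563), were not called in either arm.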

How the data were processed

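RNA-seq of 16 libraries was analysed, 8 from A431 and 8 from HaCaT, from a single table in which the authors deposited RSEM estimated counts per gene, neither scaled nor filtered. Per the study's methods, paired reads were trimmed to 75 bases and mapped to RefSeq gene models with RSEM, for which the methods and the submitters' processing notes name different versions. The notes name hg19. Conditions were taken from the sample labels. The methods speak of biological triplicates, while the labels give single control libraries and do not say whether replicates were separate cultures. In the main fit the p values and SE rest on the spread between libraries of the same treated group, whatever its source. The control groups, with a single library each, add no measured spread, so variation between control cultures is assumed and not measured.

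Estimated counts were rounded and fitted with edgeR 4.0.16 in R 4.3.3 as 1 model of 8 groups with TMM factors (0.914 to 1.07), a filter that asked for over 10 counts on average, and Benjamini-Hochberg adjustment over 14673 genes, with 8 residual degrees of freedom. The SE is the log2 fold change over the square root of F. Intervals for sequencing counts cover counting error only. Correlations used log2 CPM with a prior count of 2. Alternatives used DESeq2 1.42.0, RLE factors, other filters, pooled controls, a replicate block and each treated library left out. The settings for the other gene lists, and coding length, were added after the data had been seen. Members and lists were chosen with earlier results of these data known. Genes named from the other lists are those called, up to 6 per list and comparison, and the superfamily genes ALDH5A1, ALDH1L2 and ALDH1L1, with the largest line differences. CYP1A1, CYP1B1, NQO1, ADH7 and ALDH1A2 were named after their values were seen. For likeness the 5 genes with the highest Pearson correlation were named. Sequences, lengths and neighbours came from RefSeq GRCh38.p14 and GENCODE 29, read in Python 3.11.15 with pandas 2.3.3 and Biopython 1.88, and figures were drawn with matplotlib 3.10.9.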

Additional observations from a re-analysis of the deposited data

How the results depend on the processing

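The call counts between the lines (8 of the 9 genes over 4 conditions, within siYAP and within YAP5SA) were 7 or 8 under every alternative run, 7 only where more than 10 counts were asked of every library, which removed ALDH1A1. With siCTRL and empty vector as 2 controls, the 9 genes gave 0 calls for siYAP in A431, 3 in HaCaT (ALDH3A1, ALDH3B2 and ALDH1B1) and 2 over both lines (ALDH3B2 and ALDH1B1). For YAP5SA they gave 4 in HaCaT (ALDH3A1, ALDH3A2, ALDH3B1 and ALDH3B2). The 13.6% of all genes called there belongs to the fit with the empty vector alone, so it is no background for these 4. Nothing is read from their number. For YAP5SA over both lines the 9 genes gave 0, so that ALDH1A1 was called for neither treatment. All genes called for siYAP were then 198 in A431, 2941 in HaCaT and 2933 over both lines, against 821, 832 and 1904, and for YAP5SA 1 in A431 and 766 over both lines, against 0 and 300. The line differences of the effects were 11 and 1, against 25 and 13. DESeq2 called 2 of the 9 for siYAP in A431 (ALDH3A1 and ALDH3B2), as did RLE factors, no filter and the stricter filter, and 1 (ALDH1A1) for the line difference of the YAP5SA effect. Its counts of all genes were 1365 and 1316 for siYAP in A431 and HaCaT, 3 and 1024 for YAP5SA in A431 and over both lines, and 257 and 883 for the line differences. RLE factors gave 13 and 108 for the line differences, no filter gave 2 for YAP5SA in A431 and 35 for its line difference, and the stricter filter gave 217 for the latter, with 1 of the 9 called for siYAP in HaCaT and 1 for YAP5SA over both lines. A replicate block gave 1 gene for YAP5SA in A431, 611 over both lines, and 16 and 21 for the line differences. The same number in A431 and HaCaT correlated at 0.02, 0.11 and 0.21 for siYAP and 0.36, 0.16 and 0.14 for YAP5SA, over 0.1 in every YAP5SA pair but not in every siYAP pair, and nothing in the labels says that a number marks a shared day or batch, so the numbers were not taken to pair the samples. Leaving out 1 treated library gave 333 to 542 genes for siYAP in A431, 518 to 704 in HaCaT, 0 to 87 for YAP5SA in A431, 1142 to 2909 in HaCaT and 48 to 1367 over both lines, and 6 to 13 and 1 to 873 for the line differences. Of the 9, it left 0 called for siYAP in A431, 2 to 5 for YAP5SA in HaCaT, 0 to 5 over both lines and 0 to 2 for the line difference of the YAP5SA effect. The cause of these shifts was not tested. ALDH1A1 in HaCaT rests on 2 counts in the siCTRL library.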
